A study of Mus musculus with 4 samples.

Results

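Desmosomes are intercellular junctions that fasten the keratin filaments of neighbouring epithelial cells to one another. Their adhesive part is made of desmosomal cadherins, the desmogleins and desmocollins, whose tails bind the armadillo proteins plakoglobin and the plakophilins. These in turn bind desmoplakin, which holds the keratin filaments. In stratified epidermis the junctions give the tissue its mechanical strength, and the isoform of each cadherin and plakophilin changes between the basal and the upper layers.

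The 10 desmosome genes described here were taken from the deposited count table by exact gene symbol and were 10 of 24907 genes: Dsg2, Dsg3, Dsc2, Dsc3, Jup, Pkp1, Pkp2, Pkp3, Pkp4 and Dsp. RNA-seq libraries came from ASZ001, a mouse basal cell carcinoma line. Control cells had been transfected with an empty doxycycline-inducible vector and c-FOS cells with the same kind of vector carrying c-FOS, a subunit of the AP-1 transcription factor. Both groups received doxycycline, and each had 2 libraries. The sources used here do not give the dose and duration of doxycycline, nor whether the cells were clones or pools. No library of c-FOS vector cells without doxycycline was analysed, so an effect of induced c-FOS and another difference between the kinds of cell cannot be told apart. The labels do not call the replicates separate cultures, so the p-values reflect the spread between libraries, which may be technical.

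The libraries held between 28405433 and 32465409 counts. Fos was at counts-per-million values (CPM, scaled to the effective library size) of 0.404 and 0.351 in the control and 296.8 and 313.4 in the c-FOS libraries, so the targeted gene matched the labels. All 6 defining keratinocyte markers examined (Krt5, Krt14, Krt15, Trp63, Epcam and Cdh1) were expressed in both groups, with a summed level of 19341 and 19555 CPM in control and 8919 and 9266 CPM in c-FOS libraries. Of the 6, 5 fell and Epcam did not pass.

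Desmosome genes split evenly in direction. Of the 9 that were expressed highly enough to be tested, 4 rose with c-FOS (Pkp2, Jup, Pkp3 and Dsg2), 4 fell (Dsc3, Dsg3, Pkp1 and Pkp4) and Dsp did not pass. The quasi-likelihood test of edgeR, run over 12791 genes with a threshold of 0.05 on Benjamini-Hochberg adjusted p, called 67.1% of all genes, 33.8% as higher and 33.3% as lower. The median log2 fold change of the 9 genes was 0.04, beside -0.01 over all genes tested. In each of the 9 genes the c-FOS and control libraries did not overlap, as in 83.6% of all genes tested. When libraries were scaled by their totals, the median of all genes moved to -0.14, the share of called genes that were higher went from 50.3% to 35.4%, and 3 desmosome genes rose and 5 fell.

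**Figure D1:**
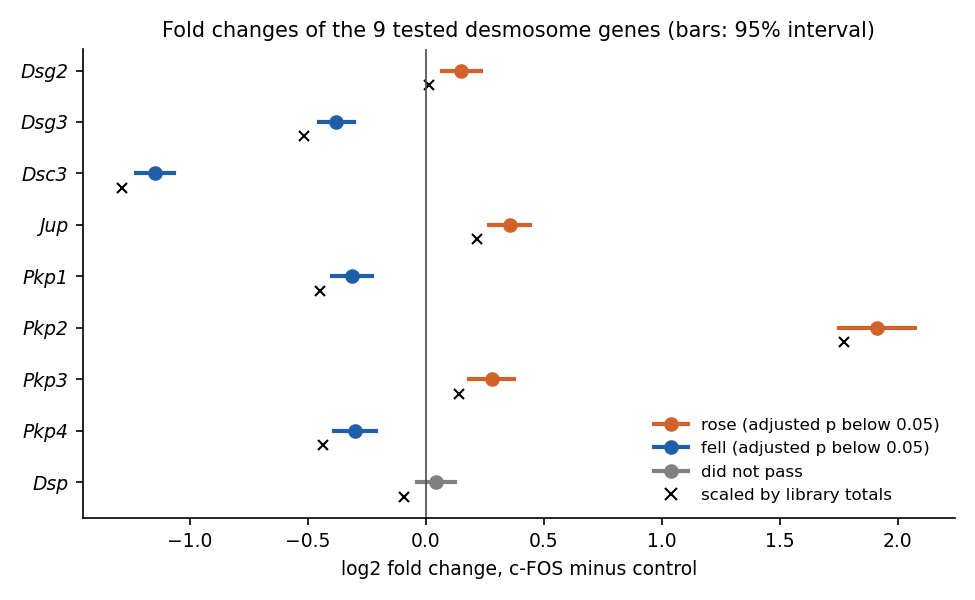
Log2 fold change of each tested desmosome gene on the x axis, c-FOS minus control, with its 95% interval as a bar (n = 2 libraries per group) and the value under scaling by library totals as a cross. Pkp2 at 1.91 and Dsc3 at -1.15 lie farthest from 0, and for Dsp the cross lies on the other side of 0.

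To compare levels between genes, CPM values were divided by the gene model length in the authors' table, giving CPM per kilobase. In the control libraries the order from the highest mean level was Pkp1 (273 CPM per kilobase), Jup (233.1), Dsp (190.9), Dsg3 (138), Pkp3 (61.4), Dsc3 (59.4), Dsg2 (29.5), Pkp4 (27), Pkp2 (3.39) and Dsc2 (0.00887). Only Pkp3 and Dsc3 overlapped as neighbours in that order. In the c-FOS libraries Jup stood first at 298.2 CPM per kilobase and Pkp1 second at 220 CPM per kilobase. Dsg2, at 32.7 CPM per kilobase, stood above Dsc3, at 26.8 CPM per kilobase. No neighbours overlapped there. The order and the shares given below rest on the deposited lengths, which library spread does not cover. For Dsg2 this was 5754 bases, while its exons in a GENCODE annotation on another build cover 8268 bases. At that length Dsg2 would lie below Dsc3 in c-FOS and below Pkp4 in control libraries. The 10 genes thus covered a wide span: Jup, Pkp1 and Dsp had a higher per-length level than 99.1%, 99% and 98.5% of the tested genes, whereas Pkp2 exceeded 42.1%.

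**Figure D2:**
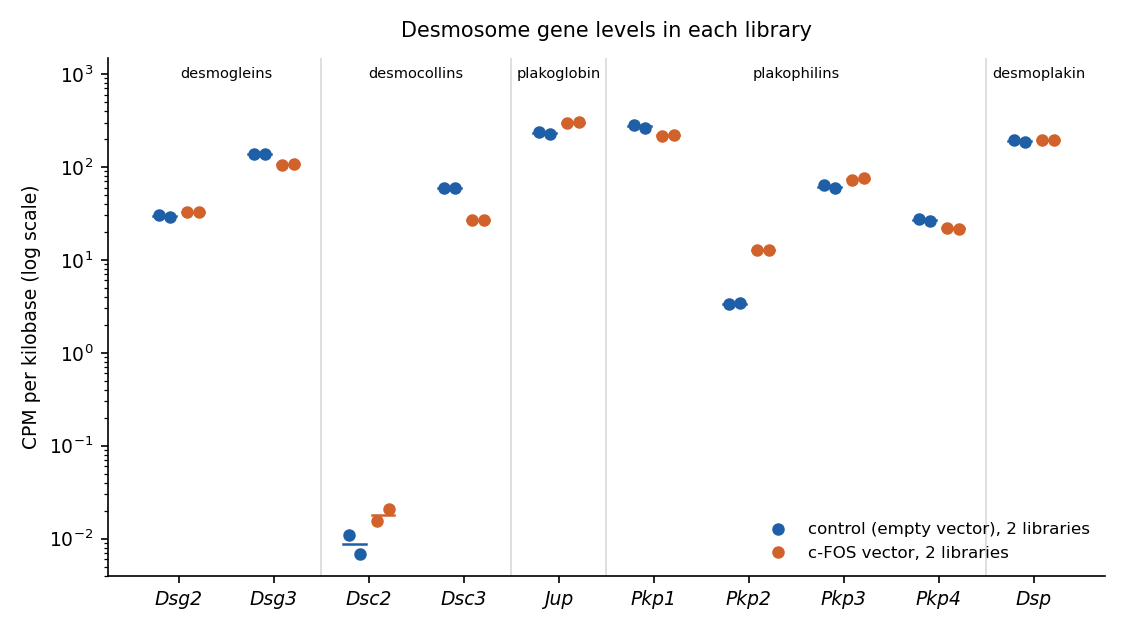
CPM per kilobase of the 10 desmosome genes on a log scale, with 1 point per library and a short line at each group mean (2 control and 2 c-FOS libraries). Dsc2 lies near 0.01 in all 4 libraries, and the groups stand apart most for Pkp2 and Dsc3.

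The desmogleins moved in opposite directions. Dsg3, the desmoglein of basal and lower spinous keratinocytes and the antigen of pemphigus vulgaris, was at 567.9 and 569.5 CPM in control and at 435.2 and 439.8 CPM in c-FOS libraries. Both c-FOS libraries lay below both control libraries, a log2 fold change of -0.38 ± 0.03 (SE; adjusted p = 3.23e-07, edgeR). Dsg2, a desmoglein found in all desmosome-bearing tissues including heart, was at 173 and 166.5 CPM in control and 189.8 and 187.1 CPM in c-FOS libraries. The c-FOS libraries were higher by 0.15 ± 0.04 on the log2 scale (SE; adjusted p = 0.00334, edgeR). That call was lost with library totals (0.013, adjusted p = 0.77), with upper-quartile factors (0.088, adjusted p = 0.0599) and without c-FOS replicate 1 (0.14, adjusted p = 0.0621), within a range of 3.06e-06 to 0.77 over the alternatives run. In a GENCODE annotation on another build than the counts, an antisense gene, Gm16090, shares 330 exon bases with Dsg2. It had at most 11.5 counts in any library beside at least 5146 for Dsg2, and the sources used here do not say whether counting used strand.

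Because a scaling factor cancels within a library, ratios between genes do not depend on it. The per-length ratio of Dsg3 to Dsg2 was 4.58 and 4.78 in control and 3.20 and 3.28 in c-FOS libraries. Dsg3 therefore made up 82.4% ± 0.426 (SD, n = 2) of the pair in control and 76.4% ± 0.315 in c-FOS cells. Of the 8 such ratios computed, all kept the 2 groups apart. The share of other gene pairs that do so was not computed, and 83.6% of single tested genes kept the groups apart. Each of the 8 ratios had p = 0.333 in a two-sided exact permutation test over the 4 libraries (0.333 after Benjamini-Hochberg adjustment). This is the smallest p that 2 against 2 libraries allow.

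Dsc3 was the member that fell most. It encodes the desmocollin of basal keratinocytes. Its levels were 316.9 and 311.3 CPM in control and 142.2 and 141.5 CPM in c-FOS libraries. The c-FOS libraries had less than 50% of either control value, with a log2 fold change of -1.15 ± 0.04 (SE) and an adjusted p of 4.37e-12 (edgeR). This fold was larger in size than that of 87% of tested genes. The ratio of Dsc3 to Dsg3 was 0.435 and 0.426 in control and 0.255 and 0.251 in c-FOS libraries. Dsc2, a widely expressed desmocollin, was close to absent from both groups, with deposited counts of 1.5 and 1 in control and 2 and 3 in c-FOS libraries. It was not tested. Its summed rounded counts of 3 and 5 gave a scaled ratio of 1.73 with an exact 95% interval of 0.337 to 11.1, which covers counting error only. No difference in Dsc2 was detectable at this depth. Dsc3 made up 99.99% of the summed Dsc2 and Dsc3 level per length in control and 99.93% in c-FOS cells. Dsc1, which is not in that sum and was not tested, had a mean of 0.0626 CPM per kilobase in control and 0.0069 in c-FOS libraries.

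Summed over the 4 cadherins, the level per length was 227.9 and 226.1 CPM per kilobase in control and 165.5 and 166 CPM per kilobase in c-FOS libraries. The mean went from 227 ± 1.29 to 165.8 ± 0.362 (SD, n = 2 per group), so it dropped by 27%. Summed levels, unlike shares, depend on the scaling. With library totals, which moved the median of all genes to -0.14 on the log2 scale, the drop would be larger. Within that sum Dsc3 went from 26.2% to 16.2%, Dsg2 from 13% to 19.8% and Dsg3 from 60.8% to 64.1%. The share of Dsg3 among cadherins was thus higher with c-FOS although its own level was lower.

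In RefSeq on GRCm38.p6, another build than that of the counts, these 4 genes stand in 1 cluster with the other desmosomal cadherins. The order along the cluster is Dsc3, Dsc2, Dsc1, Dsg1c, Dsg1a, Dsg1b, Dsg4, Dsg3 and Dsg2. Along it, the log2 fold changes of the tested genes were -1.15 for Dsc3, -2.47 for Dsg1a, -1.56 for Dsg1b, -0.38 for Dsg3 and 0.15 for Dsg2. Dsg2, at one end, was the only tested gene of the cluster that rose under the main scaling, and this was the call lost with library totals.

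Plakoglobin, encoded by Jup, is an armadillo protein related to beta-catenin that is shared by desmosomes and adherens junctions. Its transcript was at 1198 and 1129 CPM in control and 1464 and 1514 CPM in c-FOS libraries. Both c-FOS libraries were higher, by 0.36 ± 0.04 on the log2 scale (SE; adjusted p = 2.55e-06, edgeR). With library totals the fold change was 0.22 and still passed (adjusted p = 0.000202), within a range of 4.8e-31 to 0.000227 over the alternatives run. Scaling by library totals moves all genes by nearly the same amount, so the distance of Jup from their median stayed the same by construction. Relative to Jup, the per-length level of Dsg3 was 0.574 and 0.611 in control and 0.36 and 0.352 in c-FOS libraries.

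Among plakophilins, which cluster desmoplakin at the plaque, 2 rose and 2 fell. Pkp2, the plakophilin of heart, simple epithelia and the lower layers of some stratified epithelia, was the member that rose most. It was at 9.6 and 9.88 CPM in control and at 36.8 and 36.7 CPM in c-FOS libraries. The c-FOS mean was 3.77 times the control mean, a log2 fold change of 1.91 ± 0.08 (SE; adjusted p = 3.67e-11, edgeR), and its size exceeded that of 93.7% of tested genes. Pkp2 nevertheless stayed the least abundant plakophilin per length in both groups.

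Pkp1, a plakophilin of stratified epithelia that strengthens adhesion, was at 1310 and 1232 CPM in control and 1011 and 1037 CPM in c-FOS libraries. Both c-FOS libraries were lower, by a log2 fold change of -0.31 ± 0.04 (SE; adjusted p = 8.69e-06, edgeR). Pkp3, which binds the broadest range of desmosomal proteins, went the other way, from 185.1 and 169.8 CPM in control to 210.8 and 219.7 CPM in c-FOS libraries. The control libraries differed from each other more than the c-FOS libraries did, and the log2 fold change was 0.28 ± 0.05 (SE; adjusted p = 8.62e-05, edgeR). With library totals it was 0.14 (adjusted p = 0.0115, the highest over the alternatives run, the lowest being 3.46e-18). Pkp4, also called p0071 and related to the p120 catenins of adherens junctions, was at 126.5 and 121 CPM in control and 102.2 and 99 CPM in c-FOS libraries. It was lower in both c-FOS libraries, with a log2 fold change of -0.30 ± 0.04 (SE; adjusted p = 2.25e-05, edgeR).

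The composition of the plakophilin pool differed between the groups accordingly. Per length, Pkp1 made up 74.8% and 74.9% of plakophilin transcripts in control and 66.8% and 66.9% in c-FOS libraries. Pkp3 went from 17% and 16.6% to 22.4% and 22.8%, and Pkp2 from 0.887% and 0.973% to 3.93% and 3.83%. Pkp4 was at 7.32% and 7.47% in control and 6.85% and 6.48% in c-FOS libraries. The ratio of Pkp1 to Pkp2 was 84.3 and 77 in control and 17 and 17.5 in c-FOS libraries, and that of Pkp1 to Pkp3 was 4.40 and 4.51 against 2.98 and 2.93. The summed plakophilin level dropped by 9.77% with c-FOS, from 364.7 ± 16.4 to 329.1 ± 5.54 CPM per kilobase (SD, n = 2 per group). This drop would also be larger with library totals.

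**Figure D3:**
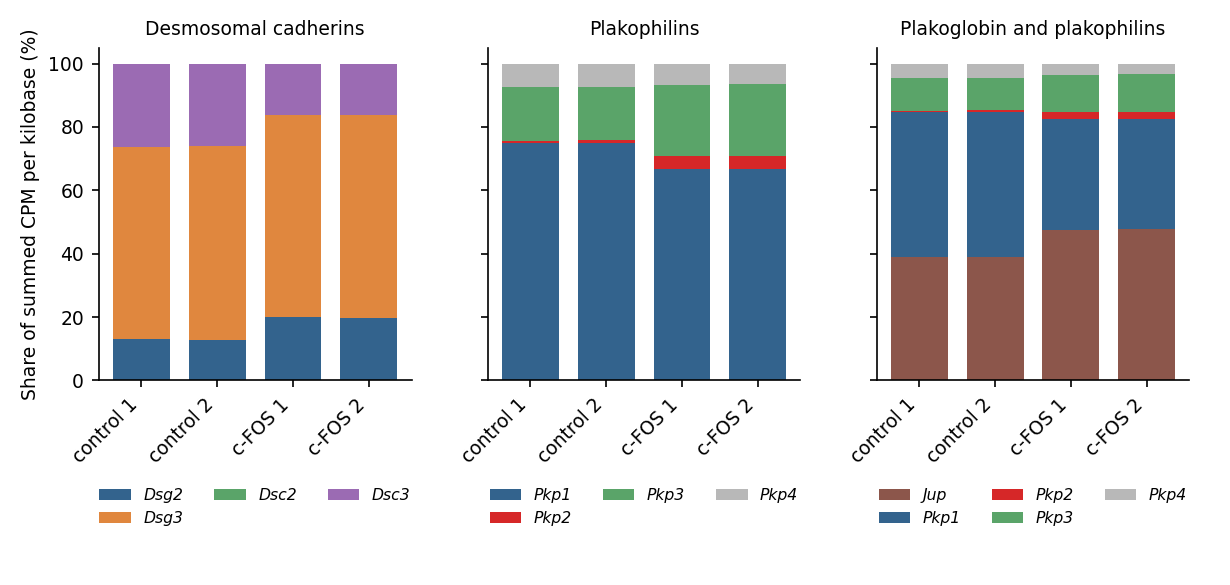
Stacked shares, in percent of summed CPM per kilobase, of the 4 desmosomal cadherins, the 4 plakophilins, and plakoglobin with the plakophilins in each of the 4 libraries. Libraries of 1 group look alike, and with c-FOS the shares of Dsc3 and Pkp1 are smaller and those of Dsg2, Jup, Pkp2 and Pkp3 larger.

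With Jup counted in, the armadillo transcripts summed to 597.8 ± 26.2 CPM per kilobase in control and 627.3 ± 12.5 CPM per kilobase in c-FOS cells (SD, n = 2 per group), a difference close to the control spread, with 616.3 and 579.3 in control and 618.4 and 636.2 in c-FOS libraries. With library totals the c-FOS mean of this sum would lie below the control mean. Jup took 38.9% and 39% of this sum in control and 47.4% and 47.7% in c-FOS libraries, while Pkp1 took 45.7% in each control library and 35.1% and 35% in the c-FOS libraries. The ratio of Pkp1 to Jup was 1.17 in both control libraries and 0.741 and 0.735 in the c-FOS libraries. The most abundant armadillo transcript of the desmosome was therefore Pkp1 in control and Jup in c-FOS libraries.

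Dsp encodes desmoplakin, the plakin that ties the plaque to keratin filaments. It had the highest count of the 10 genes and was at 1872 and 1780 CPM in control and 1884 and 1881 CPM in c-FOS libraries. Its log2 fold change was 0.04 with a 95% interval of -0.04 to 0.13 (adjusted p = 0.325, edgeR), and 8.45% of tested genes had a smaller one in size. The call turned on the scaling and on 1 library: Dsp was lower with library totals (-0.093, adjusted p = 0.0373) and higher without control replicate 1 (0.082, adjusted p = 0.00775), within a range of 0.00775 to 0.803 over the alternatives run. Against Dsp as a reference within the library, Jup was at 1.23 and 1.22 in control and 1.49 and 1.54 in c-FOS libraries. Dsg3 was at 0.704 and 0.743 in control and at 0.536 and 0.543 in c-FOS libraries. In the GENCODE annotation, Gm10129 on the opposite strand shares 499 exon bases with Dsp. The deposited counts hold no entry for Gm10129, so its part in the Dsp counts is not known.

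Upstream sequences were at hand for 3 of the 10 genes (Dsp, Jup and Pkp4, from RefSeq on GRCm38.p6, while the counts were made on mm9). The windows of Dsp and Jup are printed because these abundant members differed in response. Each holds the 250 bases before the start site, 5′ to 3′ on the gene's strand, and capitals mark GGGCGG, the GC box bound by Sp1-type factors, on either strand.
Dsp, chr13:38151044-38151293, plus strand: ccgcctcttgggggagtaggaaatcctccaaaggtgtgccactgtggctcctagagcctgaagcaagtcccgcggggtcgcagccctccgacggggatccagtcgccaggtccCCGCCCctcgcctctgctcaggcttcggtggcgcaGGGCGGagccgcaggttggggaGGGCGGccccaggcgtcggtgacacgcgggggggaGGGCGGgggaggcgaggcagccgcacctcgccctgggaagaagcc
Jup, chr11:100397791-100398040, minus strand: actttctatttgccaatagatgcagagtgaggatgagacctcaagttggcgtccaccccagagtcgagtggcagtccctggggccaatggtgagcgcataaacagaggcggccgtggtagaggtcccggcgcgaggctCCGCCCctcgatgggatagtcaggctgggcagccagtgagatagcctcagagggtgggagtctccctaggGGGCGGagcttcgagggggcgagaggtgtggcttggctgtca
Dsp held 4 GC boxes, Jup 2 and the windows of Pkp4 5 and 0, where 32.7% of 32851 windows of that length held at least 1. TGANTCA, the AP-1 consensus with its middle base free, was in neither window, nor in the 2 windows of Pkp4, and it occurred in 6.75% of all windows. The E-box CANNTG, bound by Snail and ZEB factors among others, was in neither Dsp nor Jup, was found 2 times in the second Pkp4 window and not in the first, and occurred in 66.2% of all windows. The motifs were searched on both strands, and in the windows printed no match overlapped another. In the first Pkp4 window, not printed, some of the 5 GC boxes overlapped within 1 stretch, so they are not 5 separate sites. The GC content was 72.4% for Dsp and 62% for Jup, beside a median of 52.4%. A motif outside these windows would not be seen.

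Related genes were counted from lists chosen for the desmosome and its surroundings; their counts stand beside the 33.8% of all tested genes called higher and the 33.3% called lower, or 3217 higher and 5879 lower genes with library totals. Of the cadherins of the upper epidermal layers and corneodesmosin (Dsg1a, Dsg1b, Dsg1c, Dsg4, Dsc1 and Cdsn), 3 of 6 were tested. Dsg1b had 11.3 ± 0.575 CPM in control libraries and 3.85 ± 0.532 CPM with c-FOS (SD, n = 2 per group) and fell, with a log2 fold change of -1.56. Dsg1a, below 1 CPM in every library, had a log2 fold change of -2.47, which was -4.26 when c-FOS replicate 2 was left out and -1.74 when c-FOS replicate 1 was. It passed the filter on low counts only through its control libraries, so it could only be called lower. Cdsn rose by 0.96 (adjusted p = 0.00651, edgeR), a call lost in DESeq2 (adjusted p = 0.0762) and without c-FOS replicate 2 (adjusted p = 0.0642), the lowest over the alternatives run being 0.000561. Dsg1a, Dsg1b and Dsg1c are close copies and can share reads. All 6 together summed to 13.4 CPM in each control library and to 5.97 and 5.63 CPM in the c-FOS libraries, little beside Dsg3.

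All 7 other plakins and plaque partners were tested, and 4 rose and 3 fell (median 0.34, highest 0.97, lowest -1.36). Those that rose were the cornified envelope plakins Evpl (121.6 ± 3.87 to 237.3 ± 5.02 CPM) and Ppl (0.43 on the log2 scale), the cytolinker Plec (0.66) and the spectraplakin Macf1 (0.34). Those that fell were Dst, whose epithelial form anchors keratin at hemidesmosomes (4430 ± 7.51 to 1724 ± 39.3 CPM; SD, n = 2 per group), Eppk1 (-0.81) and Perp, a membrane protein of desmosomes and p63 target (1238 ± 8.79 to 650.6 ± 6.74 CPM, -0.93 on the log2 scale).

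In the list of adherens junction cadherins and armadillo proteins, 2 of 7 tested genes rose and 5 fell (median -0.51). Of the 5, Ctnnd1 (-0.10) did not pass when c-FOS replicate 1 (adjusted p = 0.187) or c-FOS replicate 2 (adjusted p = 0.197) was left out in edgeR. Cdh1 fell by 1.42 on the log2 scale, Ctnnd2, a neural relative of p120 catenin, fell by 0.91 and Cdh2, the N-cadherin gene, rose by 0.70. Ctnnb1, the closest relative of Jup, was 0.17 higher, and 0.04 with library totals, where it did not pass (adjusted p = 0.359, edgeR, the alternatives run giving 5.87e-09 at the lowest).

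Of 15 listed intermediate filament genes, whose family includes the keratins that desmosomes anchor, 9 were tested, and 7 fell, 1 rose and Krt10 did not pass (median -0.82). Krt10 passed as lower with library totals (adjusted p = 0.0122, edgeR) and upper-quartile factors (adjusted p = 0.0317, edgeR), which made 8 that fell. Krt15 fell by 2.91 and Krt5 by 1.60 on the log2 scale, Krt5 from 11383 ± 399 to 3762 ± 41.3 CPM (SD, n = 2 per group). Vim, the filament protein of mesenchymal cells, rose from 0.637 ± 0.116 to 432 ± 4.37 CPM. Desmin (Des), the filament protein held by desmosomes in heart muscle, was at or below 0.0673 CPM in every library.

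Of 13 genes for shedding, modification and calcium supply of desmosomes, all were tested, and 9 rose, 3 fell and Adam17 did not pass (median 0.34). With library totals 8 rose and 4 fell, and Gsk3b was no longer called (0.046, adjusted p = 0.287, edgeR). Atp2a2, called lower, did not pass when c-FOS replicate 1 (adjusted p = 0.167) or c-FOS replicate 2 (adjusted p = 0.3) was left out in edgeR. Egfr, whose kinase activity loosens desmosomes, fell by 1.55 on the log2 scale. Prkca, a kinase that renders desmosomes calcium-dependent, rose by 0.70 and Flot1, a membrane raft protein, by 0.83. Adam10, a sheddase of cadherins, rose by 0.38 and Adam9 by 0.65. Adam17, a sheddase of Dsg2, was at 0.01 (adjusted p = 0.928, edgeR) but passed as lower with library totals (-0.13, adjusted p = 0.0298, the lowest over the alternatives run, the highest being 0.989).

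Among 9 transcription factors of epithelial junction genes, 4 rose and 5 fell (median -0.42, and the same with Snai1 at its bound). Those that rose were the repressors Zeb1 (8.41 ± 0.342 to 75.7 ± 0.00509 CPM), Zeb2 (12.3 ± 0.0438 to 63.1 ± 0.574 CPM; SD, n = 2 per group), Twist1 (1.02 on the log2 scale) and Snai1, whose control libraries held 0 counts, so that, with 3 counts taken as the control group's floor, it was at least 36.7-fold higher. Snai1 passed the filter on low counts only through its c-FOS libraries, so it could only be called higher. Those that fell included Trp63, which encodes p63, by 1.54 on the log2 scale, and Grhl2, a grainyhead factor, from 165.2 to 58.2 CPM. Snai2, a repressor related to Snai1, also fell, from 74.4 to 38.8 CPM (-0.94 on the log2 scale), so the repressors did not all rise. The others that fell were Grhl1 (-0.64) and Klf5 (-0.42).

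**Figure D4:**
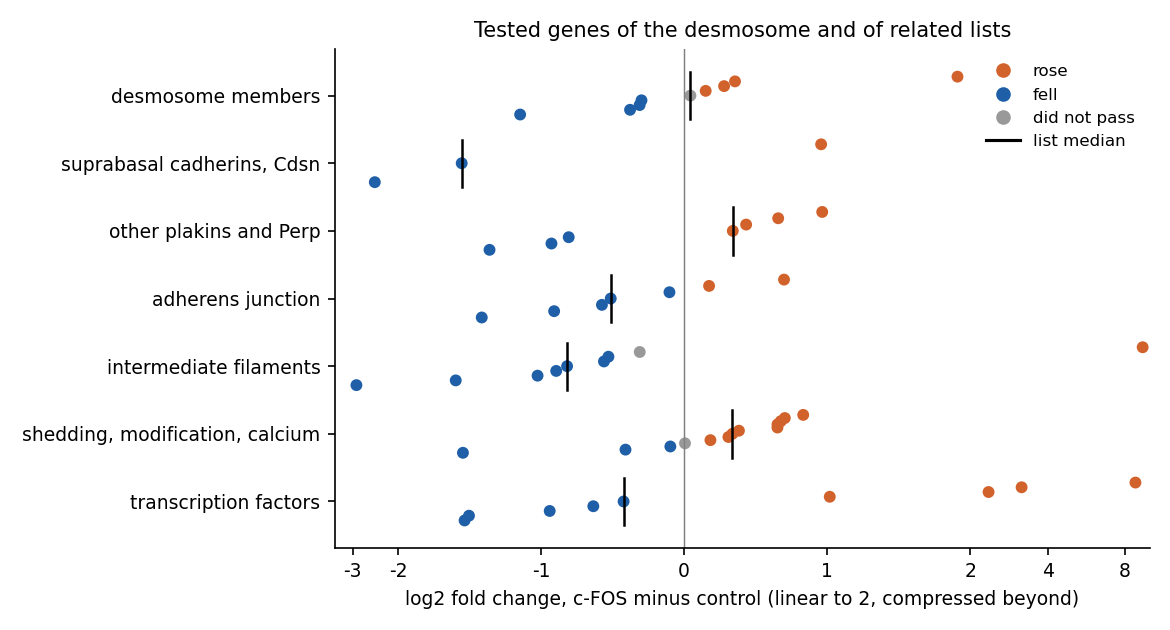
Log2 fold change, c-FOS minus control, of every tested gene in the desmosome list and 6 related lists, with 1 point per gene and a black line at each list's median; the x axis is linear to 2 and compressed beyond, and the rightmost transcription factor, Snai1, has a fitted value over 0 control counts. The desmosome genes lie on both sides of 0 around a median of 0.04, while most intermediate filament points lie below 0.

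Markers of other cell types were measured beside these genes. Of 8 fibroblast markers 4 were tested and 3 rose: Pdgfra (4.23 to 11.6 CPM), Col1a2 (0.539 to 3.45 CPM) and Pdgfrb, with 0 control counts and 2.68 CPM in the c-FOS mean. Pdgfrb passed the filter on low counts only through its c-FOS libraries, so it could only be called higher. Col1a1, the other tested marker, did not pass (0.289 to 0.524 CPM, adjusted p = 0.107, edgeR). With 6 counts in control replicate 2, it also entered the test through its c-FOS libraries. The summed level of all 8 was 5.4 and 5.65 CPM in control and 17.6 and 19.1 CPM in c-FOS libraries. Thy1 was at 0 in all 4 libraries and Col3a1, Dcn and Lum were below 1 CPM. The mean of Dcn, which was not tested, was lower with c-FOS (0.438 to 0.128 CPM). Of 7 macrophage and leukocyte markers 3 were tested and rose, with sums of 18.8 and 17 CPM in control and 41.4 and 44.9 CPM in c-FOS libraries. Csf1r, which encodes the CSF1 receptor, made most of that difference, at 0.387 and 0.224 CPM in control and 18.4 and 18.5 CPM in c-FOS libraries (log2 fold change 5.87), while Ptprc stayed below 0.1 CPM and Cd3e was at 0. With 7 counts in control replicate 2, Csf1r likewise entered the test through its c-FOS libraries. Cd68 did not pass when c-FOS replicate 2 was left out (adjusted p = 0.0617, edgeR). Of 6 endothelial markers 3 were tested and rose (sums of 113.1 and 113.3 against 216.1 and 211.9 CPM), mostly through Flt1 (29.2 and 32.6 against 113.1 and 109.5 CPM), with Kdr at 0 and Cdh5 below 0.1 CPM. Neither of the 2 tested melanocyte markers of 6 passed (sums of 49.4 and 51.7 against 48.5 and 51.2 CPM), and Tyr and Mlana were at 0. With library totals both passed as lower, Mitf at -0.15 (adjusted p = 0.0217, edgeR) and Pmel at -0.86 (adjusted p = 0.04, edgeR). The part of these markers in the desmosome results was not tested. In such bulk libraries, fewer cells of a type and less RNA per cell cannot be told apart.

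The genes whose profile lay nearest to Pkp2 and Dsc3 over the 4 libraries were found by Euclidean distance of mean-centred log2 CPM among 9279 genes of at least 10 CPM. Nearest to Pkp2 were Wisp1 (distance 0.04), Piezo1 (0.0417) and Antxr2 (0.0502), with log2 fold changes between 1.87 and 1.94. Nearest to Dsc3 were Map7 (0.0302), Agbl5 (0.0451) and Lgals7 (0.0459), with log2 fold changes between -1.17 and -1.11. With 4 libraries in 2 groups, such nearness mostly reflects a like fold change.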

How the data were processed

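Per the submitters' processing notes and the series design text, reads were aligned with TopHat, counted with HOMER on mm9, and DESeq2 was also used; the sources used here give no versions, strand setting or annotation. The authors deposited 1 expected count per gene symbol and library in steps of 0.5 (48% of values above 0 are not whole) and a gene model length. Repeated symbols were reduced to the row with the highest total, leaving 24907 of 24909 rows. Values were rounded to whole counts and tested with edgeR 4.0.16 (R 4.3.3): TMM factors, filterByExpr (minimum count 10, minimum total 15), quasi-likelihood test without covariates, two-sided, Benjamini-Hochberg threshold 0.05. A gene could pass this filter through either group alone, as Snai1 and Pdgfrb did through c-FOS and Dsg1a through control. CPM used the effective library size and unrounded values. SE came from the F statistic. The 2 residual degrees of freedom were moderated with 11.3 prior degrees, and the biological coefficient of variation was 3.38%. The test was checked on simulated counts. Replicates differed by more than sampling noise (chi-square per degree of freedom 5.01 in control and 1.98 in c-FOS).

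The desmosome genes and related lists were chosen with earlier results of these data known. Besides the 10 genes, the text names the 3 genes with the largest change of each list, the 3 nearest profiles and defining markers at 0; other list members were named after their values were seen. One marker gene is not reported here. Alternatives were other scalings, filters, DESeq2 1.42.0, unrounded values, a replicate block and leaving out each library. RefSeq and GENCODE tables on another build gave gene order, overlaps and upstream sequences.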

Additional observations from a re-analysis of the deposited data

How the results depend on the processing

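Of 13 alternatives run, none moved the count of desmosome genes past the threshold outside 7 to 9, and Dsg3, Dsc3, Jup, Pkp1, Pkp2, Pkp3 and Pkp4 kept their direction and call in all 13. Dsp turned to -0.093 with library totals and -0.019 under upper-quartile factors, which shift the median of all genes to -0.14 and -0.068. Adam17, which did not pass, turned to -0.13 and -0.057 with these scalings and lay between -0.037 (without control replicate 1) and 0.052 (without control replicate 2) with 1 library left out, being -0.0084 without c-FOS replicate 1. With 1 library left out, Epcam reached 0.0059 (without c-FOS replicate 1) at the highest and -0.021 at the lowest. The cause was not tested. Epcam passed as lower with library totals (-0.15). Without the division by length, the c-FOS minus control difference in share changed, since the weights of long genes change. It was -5.96 percentage points for Pkp1 among plakophilins (-8.02 with the division) and 2.05 for Pkp2 (2.95). For Dsg3 in the pair with Dsg2 it was -7.12 (-5.96 with the division). Leaving out 1 library each kept these between -8.09 and -7.94, 2.90 and 3, and -6.26 and -5.66. Over all genes, between 7176 (DESeq2) and 9096 (library totals) passed.

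The replicate numbers are not stated to pair the libraries. With the replicate block, 8464 genes and 8 desmosome genes passed, beside 8589 and 8 without it. Of the desmosome genes and related lists, the block ended the calls of Ctnnd1 (adjusted p = 0.0672, edgeR) and Atp2a2 (adjusted p = 0.095, edgeR) and no other. Deviations of same-numbered libraries correlated at -0.143 over 9288 genes, and with a crossed pairing, chosen after seeing the data, 9047 genes and 8 desmosome genes passed. Dsc2 was the 1 desmosome gene whose counts were too low to test.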
